A study of Mus musculus with 4 samples.

Results

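*Yy2* (ENSMUSG00000091736) is 1 of the 1577 genes listed in the authors' deposited RNA-sequencing table of mouse embryonic stem cells (mESCs) treated with Go6983. It was selected on its readout in the same 4 samples, namely the fall between NT and Go6983-treated cells, so its change is described here with no test. The cells were 46C mESCs, a mouse line that carries a GFP reporter at *Sox1*, and total RNA was sequenced from 2 NT samples in control medium (NT 1 and NT 2) and 2 samples given 5 μM Go6983, an inhibitor of several protein kinase C (PKC) isoforms, for 24 h (Go6983 1 and Go6983 2). The comparison asks which transcripts change when PKC is inhibited in mESCs. All 4 samples share 1 cell line, the labels name no vehicle in the control medium, and they do not say whether the samples of a group were separate cultures, so every p-value measures only the spread between these samples, which may be technical. Every gene in the table had passed a selection for change by the authors, with an absolute log2 difference of 1.00 or more, and its values are log2 of a normalized read count plus 1. That selection used the same samples, so the adjusted p-values below are not valid as tests of change and are printed as descriptions. The reads that could be recovered from it numbered between 859777 and 1054236 per sample over the listed genes, and the total depth is unknown.

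YY2 is a zinc finger transcription factor related to YY1, a widely expressed factor that can activate or repress its targets. Its gene has no introns of its own and arose when a reverse-transcribed copy of *Yy1* was inserted into an intron of *Mbtps2*, the gene of the site-2 protease that releases the SREBP and ATF6 transcription factors from the membrane. *Zfp42*, known as Rex1 and used as a marker of pluripotent cells, belongs to the same family. YY2 keeps the DNA-binding zinc fingers of YY1, can bind overlapping sites, and has been linked to self-renewal and differentiation of mESCs.

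In the GENCODE M21 annotation of the GRCm38 build, *Yy2* is a single exon of 2867 bases on the minus strand at chrX:157566119-157568985, with 1134 coding bases. It lies in intron 5 of *Mbtps2-201*, an intron of 11357 bases, on the same strand as its host. Of the 8 annotated *Mbtps2* transcripts, 3 overlap the *Yy2* exon, and 2 of these (*Mbtps2-203* and *Mbtps2-208*) hold all 2867 bases of it in their last exon. In *Mbtps2-208* the coding bases over *Yy2* number 1134, the whole *Yy2* coding part. Reads of *Yy2* itself, of these *Mbtps2* transcripts and of unspliced *Mbtps2* RNA therefore cannot be told apart by position, and no source used here names the read counter or its use of strand. The table was made on mm9, so the coordinates here place the gene only and were not used for its values.

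The *Yy2* and *Yy1* coding sequences are shown over 120 bases of their zinc finger part, where they are most alike, because reads of near-identical copies could be assigned to either gene. The *Yy2* stretch is chrX:157567737-157567856 on the minus strand (GRCm38, from coding base 913) and the *Yy1* stretch runs from its coding base 1021 on chromosome 12, with the 17 bases that differ in capitals.
*Yy2*: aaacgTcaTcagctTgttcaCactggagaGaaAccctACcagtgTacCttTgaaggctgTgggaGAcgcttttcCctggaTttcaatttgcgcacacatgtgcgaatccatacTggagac
*Yy1*: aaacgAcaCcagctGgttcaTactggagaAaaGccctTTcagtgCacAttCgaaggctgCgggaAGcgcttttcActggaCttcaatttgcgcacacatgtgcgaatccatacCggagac
Within this stretch 103 of 120 bases (85.8%) were the same, and the longest exact run shared by the transcripts was 32 bases. Over the whole alignable coding part, *Yy2* bases 507 to 1134, 79.8% of 625 aligned bases matched *Yy1*, whereas *Zfp42* matched over 317 bases only, at 73.5%. Of the 2818 windows of 50 bases in the *Yy2* transcript, 0 were identical to *Yy1* and 6 came within 3 mismatches. Apart from *Mbtps2*, *Yy1* was the 1 annotated gene that shared an exact run of at least 30 bases with *Yy2*. No source used here states the read length.

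**Figure D1:**
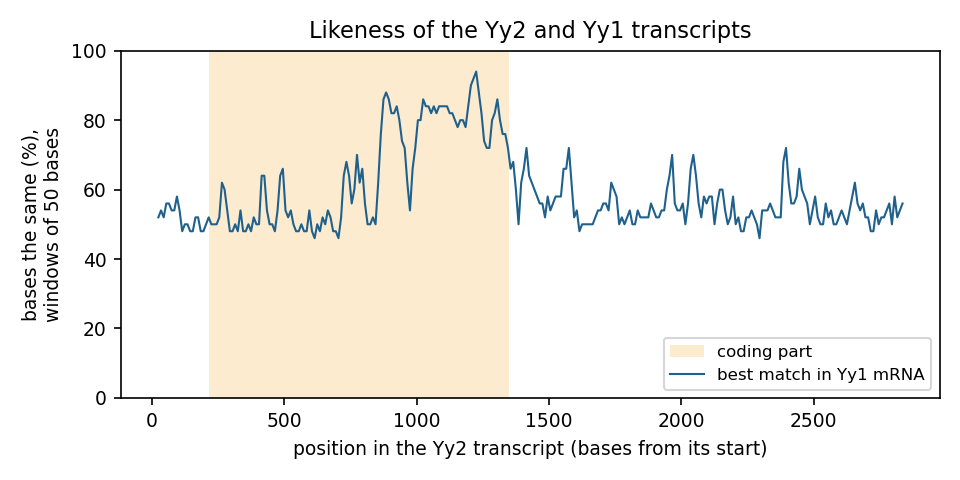
Share of bases (%, vertical axis) in windows of 50 bases of the *Yy2* transcript, taken every 10 bases, that matched the best ungapped place of the window in the *Yy1* mRNA, against the position of the window from the *Yy2* start in bases, with the coding part shaded. The line reaches 94% in the zinc finger part and has a median of 54%.

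The 250 bases before the annotated *Yy2* start are shown only at their repeated letters, which were picked after the sequence had been read. The letters TGACGT, the core of the cAMP response element (CRE), occurred at 2 places, beginning 108 and 84 bases before the start, and CCGGAA, an ETS-type core, at 2 places, 43 and 21 bases before it. Both pairs are printed on the minus strand from the GRCm38.p6 promoter sequences of RefSeq, with the searched letters in capitals.
CRE pair, chrX:157569064-157569093: TGACGTttccagtggcgcgcccagTGACGT
ETS pair, chrX:157569001-157569028: CCGGAAacacctataagctcctCCGGAA
Searched on both strands of 32851 RefSeq promoters, 250 bases each, TGACGT was present in 6.47% and at least 2 matches in 1.80%, and CCGGAA was present in 12.0% and at least 2 matches in 2.49%. TGCGCA, the core letters of NRF1, occurred once and was present in 6.43% of promoters, while GCCAT of YY1 and TATAAA of the TATA box had no match, against 32.9% and 12.4% of promoters. None of these matches overlapped another. The window held 13 CpG dinucleotides, against a median of 6, and 49.2% G+C, against a median of 52.4%. Of all promoters, 70.6% had as many CpG or fewer and 39.5% had as much G+C or less. TGACGT and CCGGAA each contain a CpG, and the shares above were not matched for CpG count. The bases that hold both pairs are also part of the last exon of *Mbtps2-203* and *Mbtps2-208*. A match is a description of letters and was not tested as a site.

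*Yy2* was high in both NT samples and low in both Go6983-treated samples. It had 648 reads in NT 1 and 562 in NT 2, against 26 in Go6983 1 and 39 in Go6983 2. Divided by the size factors recovered from the table (1.01 and 0.979 for NT, 1.07 and 0.934 for Go6983), these are normalized counts of 644, 574, 24.3 and 41.7. The groups did not overlap, which the choice of *Yy2* for its fall made likely. The lowest NT value was 13.8-fold above the highest Go6983 value.

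The exact Poisson 95% intervals of the normalized counts, which cover counting error only, ran from 596 to 696 in NT 1, from 528 to 624 in NT 2, from 15.9 to 35.6 in Go6983 1 and from 29.7 to 57.1 in Go6983 2. In the order of the levels, NT 1 and NT 2 had overlapping intervals, as did Go6983 2 and Go6983 1, and the one step without overlap lay between the groups. The mean normalized count was 609 ± 49.6 (SD, n = 2) in NT and 33.0 ± 12.4 (SD, n = 2) in Go6983, which is 18.5-fold lower and leaves 5.42% of the NT level. On the deposited log2 scale the Go6983 minus NT difference was -4.21 with a standard error of 0.284 from the limma fit over all listed genes. Between single samples the fall ranged from 13.8-fold (Go6983 2 against NT 2) to 26.6-fold (Go6983 1 against NT 1). In bulk RNA, fewer cells that express *Yy2* and less *Yy2* RNA per cell cannot be told apart.

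**Figure D2:**
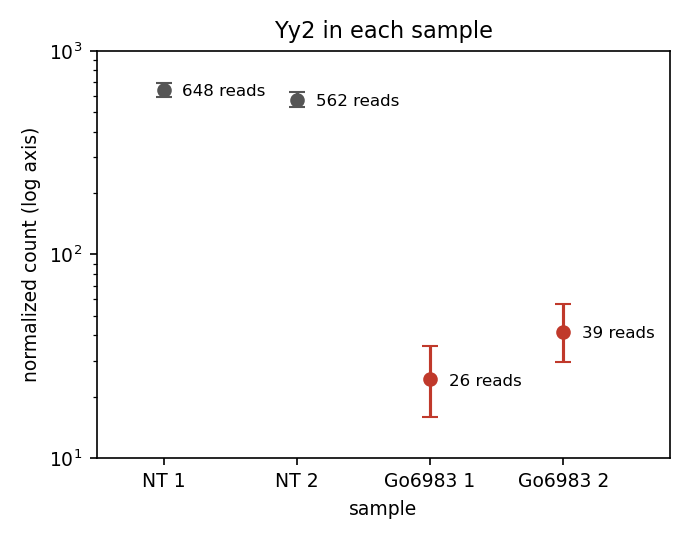
Normalized count of *Yy2* (vertical log axis) in each of the 4 samples, with exact Poisson 95% intervals as bars and the number of reads beside each point. Both NT samples sit at or above 574 and both Go6983 samples at or below 41.7.

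The Go6983 samples were further apart on the log2 scale than the NT samples. The log2 values were 9.33 and 9.17 in NT and 4.66 and 5.42 in Go6983, gaps of 0.166 and 0.758. Among the 492 other genes whose Go6983 mean was within 2-fold of that of *Yy2*, the median gap between the Go6983 samples was 0.347, and 73 genes (14.8%) had a gap as large as that of *Yy2*. For the NT samples the same comparison held 169 genes with a median gap of 0.157, and 79 (46.7%) had a gap as large. The spread of *Yy2* in NT was thus near the middle of genes of its level, and its spread in Go6983 was in the upper part.

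Per kilobase of exon, the *Yy2* level was 225 in NT 1, 200.3 in NT 2, 8.47 in Go6983 1 and 14.6 in Go6983 2, in normalized counts. By this length-corrected level *Yy2* was 175th of the 1572 listed genes with an annotated length in NT and 1117th in Go6983. *Yy2* therefore went from the upper part of the listed genes to the lower part.

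By the size of its log2 fall *Yy2* was 10th of all 1577 listed genes and 9th of the 1201 protein-coding ones. Of the 10 largest falls, 6 belonged to genes with no read in either Go6983 sample, such as *Slc9a2*, an ion exchanger (NT normalized counts of 31.8 and 18.4), and *Foxb1*, a forkhead factor (23.9 and 19.4), whose log2 differences depend on the added 1. Among the 1395 genes with a read in all 4 samples *Yy2* was 4th, after *Gm49380* (-6.26 on the log2 scale), *Insm1* (-4.51) and *Olfr307* (-4.41). It was also 4th of the 894 genes that averaged 50 normalized counts or more. By normalized counts lost, 576 for *Yy2*, it was 89th.

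To place this change among genes of similar abundance, the genes whose mean over the 4 samples lay within 2-fold of the *Yy2* mean of 321 normalized counts were taken (161 to 642). There were 284 such genes beside *Yy2*. Of these, 205 were higher and 79 were lower in Go6983-treated cells, so 27.8% were lower, against 30.3% of all listed genes. *Yy2* had the second most negative log2 difference in this group, a place that became 1 without Go6983 2 and 3 without Go6983 1. The 79 lower genes had a median log2 difference of -1.33 (quartiles -1.72 and -1.17), against -1.49 for the lower genes of the whole table, 11 were at least 4-fold lower and 4 at least 8-fold lower. Only *Insm1*, a zinc finger repressor of neuroendocrine cells, was more negative, at 525 and 387 normalized counts in NT and 29.9 and 11.8 in Go6983.

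The other genes of similar abundance with the most negative differences were *Grm6*, a glutamate receptor (-3.59), *Tnfsf11*, the cytokine RANKL (-3.36), *Wt1*, a zinc finger factor (-3.33), and *Pcdh8*, a protocadherin (-2.96). *Wt1* had unlike NT samples, 443 and 185 normalized counts, against 30.8 and 24.6 in Go6983. In the opposite direction, *Cdx1*, a homeobox factor, rose from 51.7 and 83.8 to 536 and 770 normalized counts, a log2 difference of 3.27 (limma adjusted p = 0.000446). *Zfp46*, a zinc finger gene and the nearest to *Yy2* in mean abundance, rose from 75.6 and 57.2 to 556 and 609, a log2 difference of 3.13 (limma adjusted p = 0.000375). *Pet117*, a factor of cytochrome oxidase assembly, had the most positive difference of the group (4.24) but rests on 1 library: its normalized counts were 0.995 and 1.02 in NT and 699 and 1.07 in Go6983, and it did not pass (limma adjusted p = 0.148). The next nearest in abundance, *Cdkn2d*, a CDK inhibitor, and *Mfsd2b*, a lipid transporter, had log2 differences of 1.67 and 1.10, the latter turning to -0.02 under the other scaling described next.

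**Figure D3:**
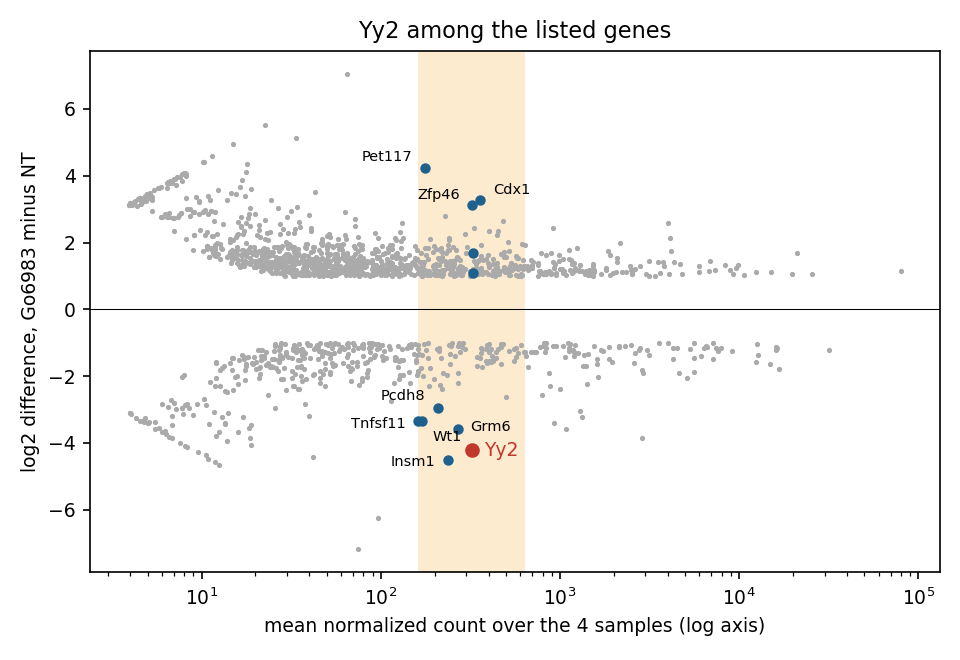
Log2 difference of Go6983 minus NT (vertical axis) against the mean normalized count over the 4 samples (log axis) for the 1577 listed genes. The shaded band holds the genes within 2-fold of the mean of *Yy2* (red), the blue points are the genes of the band named in the text, and *Insm1* alone lies below *Yy2* in the band.

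Directions in this table rest on the authors' scaling of the libraries. By limma, 1086 of the 1577 listed genes (68.9%) were higher and 469 (29.7%) lower in Go6983-treated cells by 2-fold or more with an unadjusted p of at most 0.05, whereas 22 did not pass. The count of higher genes was 614 without Go6983 2 and 628 without Go6983 1. When each library was instead divided by its median ratio over these genes, which centres a table made mostly of higher genes, log2 differences moved by a median of -1.10, and 177 genes were higher and 476 lower. The *Yy2* difference was then -5.31. Of the 20 higher genes named here, 5 changed sign under this scaling, *Fos*, *Klf4*, *Klhl34*, *Mfsd2b* and *Nanog*. None of the lower ones did. The shift follows from the make-up of the table, so a higher gene with a difference smaller than the shift changes sign by construction. These sign changes therefore do not bear on which scaling is right. Of the 284 genes of similar abundance, 132 were then lower in place of 79.

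The genes whose pattern over the 4 samples was most like that of *Yy2* were taken as those with the smallest Euclidean distance between log2 values, after subtraction of each gene's own mean, among the 893 other genes that averaged 50 normalized counts or more. The 8 nearest were *Rnf26* (distance 0.735), *Tnfsf11* (0.893), *Gadd45g* (0.983), *Pou3f1* (1.04), *Grm6* (1.22), *Lef1* (1.29), *Wt1* (1.39) and *Enpp2* (1.46). This likeness is over 4 samples that form only 2 groups, so it is mainly a likeness in the size of the fall.

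*Rnf26*, a ubiquitin ligase of the endoplasmic reticulum, had 2068 and 1949 normalized counts in NT and 154 and 177 in Go6983, a log2 difference of -3.60. *Pou3f1*, a POU factor of early epiblast and neural cells, had 5877 and 4849 in NT and 457 and 300 in Go6983, a difference of -3.85. *Gadd45g*, a stress-response gene, *Lef1*, a transcription factor of the Wnt pathway, and *Enpp2*, the secreted enzyme autotaxin, had differences of -3.41, -3.04 and -3.23. In all 8, as in *Yy2*, NT 1 was above NT 2. In 2 of the 8, *Rnf26* and *Tnfsf11*, Go6983 2 was above Go6983 1 as it was for *Yy2*. The distance that chose the 8 uses these same values, so a shared order is no separate likeness. *Yy2* had a more negative difference than any of the 8.

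**Figure D4:**
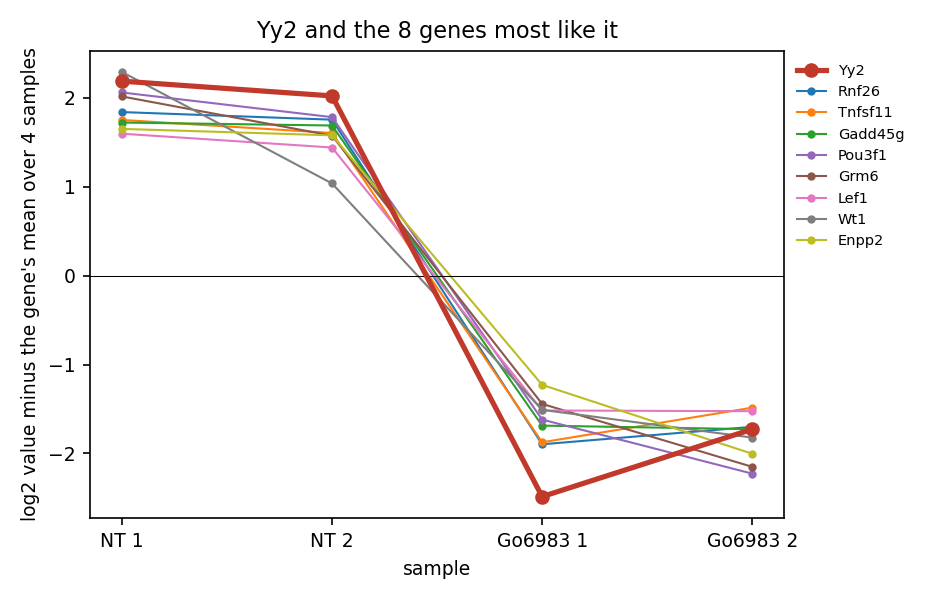
Log2 value of each gene minus its own mean over the 4 samples (vertical axis) for *Yy2* (thick red line) and the 8 genes with the smallest distance from it, by sample. The lines only join points of 1 gene. All 9 genes are above their means in both NT samples and below them in both Go6983 samples, and *Yy2* is lowest in Go6983 1.

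Within 1 Mb of *Yy2* the annotation has 30 other genes, of which 6 are protein-coding (*Phex*, *Sms*, the host *Mbtps2*, *Smpx*, *Klhl34* and *Cnksr2*), and 2 of the 30 are in the table. Both had the direction opposite to *Yy2*, as did 68.9% of all listed genes by the limma threshold. *Cnksr2*, a scaffold protein gene whose nearer end lies 252 kb away, had 189 and 145 normalized counts in NT and 417 and 387 in Go6983, a log2 difference of 1.27 ± 0.18 (SE, limma adjusted p = 0.00142). Its difference was 0.16 after median-ratio scaling. *Klhl34*, a Kelch-like gene 249 kb away, had 31.8 and 53.1 in NT and 74.7 and 97.4 in Go6983, a log2 difference of 1.03 ± 0.34 (SE, limma adjusted p = 0.0278) that became -0.07 after median-ratio scaling. *Mbtps2* has no value in the table and was not analysed here, so whether the host transcript fell with *Yy2* was not tested.

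The table lists 52 genes of the X chromosome, and *Yy2* had the most negative log2 difference of them. Of the other 51, 27 were higher and 24 lower, so 47.1% were lower, against 29.7% of the 1520 autosomal genes. By the limma threshold 26 of the 51 were higher and 23 lower, against 68.9% and 29.7% of all listed genes. Of the 23 that averaged 50 normalized counts or more, 8 were lower, so most of the 24 lower genes were below that level. With that filter 273 of all 894 genes were lower by the limma threshold. Of those 23 X-chromosome genes, the most negative were *Pim2*, a serine/threonine kinase gene (-2.05), and *Gm5380*, a processed pseudogene (-1.61). Next was *Gabra3*, a GABA receptor subunit (-1.55). *Pim2* had 8383 and 8063 normalized counts in NT and 2164 and 1829 in Go6983, so it lost more counts than *Yy2* and a smaller share. The most positive were *Nlgn3*, a synaptic adhesion gene (1.88), *C330007P06Rik* (1.76) and *Prickle3*, a planar polarity gene (1.57).

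**Figure D5:**
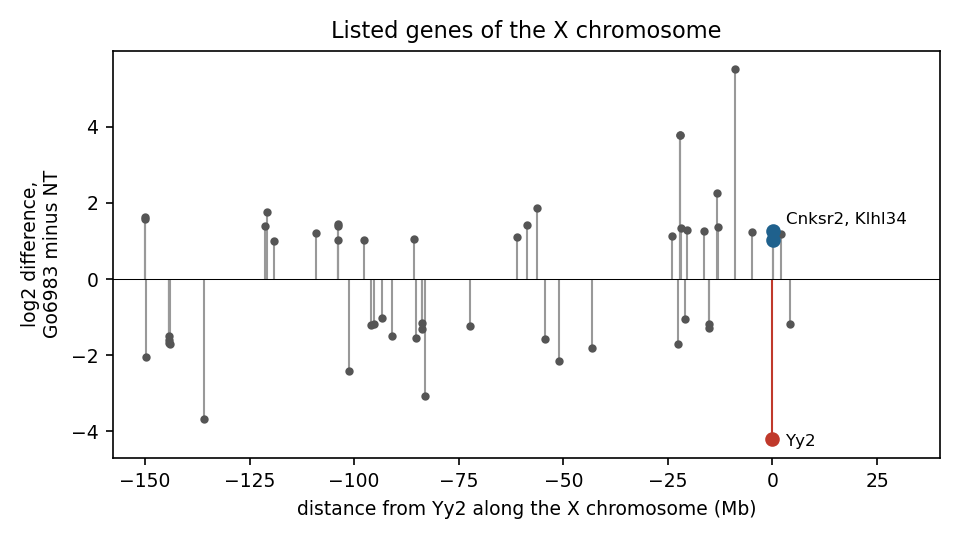
Log2 difference of Go6983 minus NT (vertical axis) for the 52 listed genes of the X chromosome, against the distance of each from *Yy2* in Mb (GRCm38). Higher and lower genes are mixed along the chromosome, with *Yy2* (red) at -4.21 and its listed neighbours *Cnksr2* and *Klhl34* (blue) above 0.

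The lists of genes around *Yy2* gave few members in the table. Its relatives *Yy1* and *Zfp42* were not in it, and neither was any of 28 genes of complexes that work with YY1 (INO80, Polycomb and histone deacetylase subunits among them). A gene outside the table has no value here, and its absence does not show that it was unchanged. From the site-2 protease and sterol pathway, the pathway of the host gene, *Scd1*, a fatty acid desaturase, rose from 1650 and 1596 to 3969 and 3998 normalized counts, a log2 difference of 1.30 (limma adjusted p = 0.000388). Its difference was 0.17 after median-ratio scaling.

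Of 18 genes linked to YY2 or YY1 in earlier work, 4 were in the table, 3 higher and 1 lower. *Cxcr4*, a chemokine receptor (log2 difference 1.47), *Nanog*, a homeobox factor of pluripotent cells (1.06), and *Fos*, an AP-1 subunit (1.00), were higher, the last 2 at -0.06 and -0.12 after median-ratio scaling. *Myc* was lower (-1.13), from 2500 and 2632 normalized counts to 1346 and 1019 (limma adjusted p = 0.00125). Since nearly every gene of the table passed the threshold by its selection, these shares say nothing particular about the lists.

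Of 20 zinc finger factors of the C2H2 kind associated with mESCs, 3 were in the table beside *Yy2*, and all 3 went the other way. By the limma threshold 68.9% of all listed genes were higher, so this count says nothing particular about the list. Zinc finger genes outside the list went both ways, with *Insm1* and *Wt1* lower and *Zfp46* higher. *Prdm14*, a repressor of DNA methyltransferase genes in mESCs, had 838 and 929 normalized counts in NT and 1900 and 2141 in Go6983, a log2 difference of 1.19 (limma adjusted p = 0.000484). *Zbtb10* and *Klf4* had differences of 1.39 and 1.01. After median-ratio scaling the differences were 0.07 for *Prdm14*, 0.26 for *Zbtb10* and -0.11 for *Klf4*. Of 27 genes of the two-cell-like state, a rare state of mESC cultures, 2 were in the table and both were lower, *Zscan4d* (-1.03, limma adjusted p = 0.0258) and *Zscan4a* (-1.41, limma adjusted p = 0.0089), which is annotated as a pseudogene. The *Zscan4* copies are near-identical, so the reads of each are uncertain. Of all listed genes, 29.7% were lower by the limma threshold, and 2 near-identical copies say nothing particular about that state.

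Markers of the labelled cells could be checked only in part, because the table omits genes that did not change. Of 10 pluripotency markers 2 were in it, both at high levels in all 4 samples: *Nanog* at 15992 and 16902 normalized counts in NT and 33595 and 34977 in Go6983, and *Utf1* at 22464 and 22283 in NT and 10757 and 9512 in Go6983. Markers of other cells moved with the groups as well. Of 8 neural markers 3 were listed, *Neurod1* (-1.90) and *Pax6* (-1.39) lower and *Lhx2* (1.31) higher, and of 8 mesendoderm markers 2, *Kdr* (-1.17) and *Lefty1* (-1.15), both lower. *Tead4* (1.62) of 8 trophoblast markers and *Col1a2* (1.13) of 8 fibroblast markers were higher, and 0 of 8 primitive endoderm markers were listed. After median-ratio scaling *Lhx2* was at 0.209, *Tead4* at 0.496 and *Col1a2* at 0.033. Of all listed genes, 68.9% were higher and 29.7% lower by the limma threshold. The counts of listed markers therefore say nothing particular about these cell types. The part of these markers in the fall of *Yy2* was not tested.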

How the data were processed

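RNA was sequenced from 2 NT and 2 Go6983-treated samples, grouped by the labels. Bowtie 0.12.2 and mm9 are named in the submitters' processing notes, and no source used here names the counter, annotation or normalization tool. The authors deposited log2 values per sample for 1577 genes selected as changed. Their group means, fold changes, p-values and adjusted p-values, also in the table, were not used. After the log2 and the added 1 were undone, 100% of the values were whole multiples, to within 0.05, of a step fixed for each sample, which gave the reads. Replicates differed by more than counting error (chi-square per gene of 10.2 between NT and 7.46 between Go6983 samples).

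Limma 3.58.1 (R 4.3.3) was run on the log2 values with lmFit and eBayes with trend, without a filter or a block, and p-values were adjusted over all 1577 genes by the Benjamini-Hochberg method. As these genes had been selected for change in the same samples, the adjusted p-values do not control a false discovery rate. The fit was tested on simulated counts in which most genes were unchanged, unlike this table, so that test does not cover the effect of the selection. Total depth is unknown, and intervals cover counting error only. Gene IDs were matched to GENCODE M21 (1572 of 1577), and promoters came from RefSeq (GRCm38.p6). Alignments used Biopython 1.88 and figures matplotlib 3.10.9.

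*Yy2* and the lists were chosen with earlier results of these data known. Named genes are the list members, the listed genes within 1 Mb, those most like *Yy2* (8), those of similar abundance (5 most negative, 3 most positive, 3 nearest) and the 3 most negative and 3 most positive genes of the X chromosome that averaged 50 normalized counts or more. One member of the sterol pathway list is not reported here. The genes of the 10 largest falls were named after their values were seen. The alternatives were a pseudocount of 0.1, median-ratio scaling, a filter at 50 normalized counts, no trend, adjusted p, other windows of abundance, each replicate left out and the replicate number as a block. Limma-voom on the recovered reads and abundance per kilobase were added after the data were seen.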

Additional observations from a re-analysis of the deposited data

How the results depend on the processing

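The log2 difference of *Yy2* stayed negative under every alternative run. It was -5.31 with median-ratio scaling, between -4.59 and -3.83 with single replicates left out, -4.25 with a pseudocount of 0.1 and -4.24 with limma-voom, which was chosen after the data were seen. With the replicate block it was -4.21 (SE 0.281), with 1073 genes higher and 466 lower. Same-numbered samples did not deviate together (correlation 0.03), so the numbers are not taken to pair them. Calls of single genes were not compared between the fits with and without the block. Genes higher numbered 1086, against 177 with median-ratio scaling, 620 with a filter at 50 normalized counts, which tests fewer genes, and 614 to 863 with single replicates left out, where leaving out Go6983 replicate 2 gave 614 and Go6983 replicate 1 gave 628. Genes lower numbered 469, against 273 with the filter and 313 to 344 with single replicates left out. In these fits the lone sample of a group is assumed to vary like the other group. Limma-voom, no trend and adjusted p kept each count within 1.5 times.

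The place of *Yy2* among genes of similar abundance, counted from the most negative difference, was 2, between 1 (without Go6983 replicate 2) and 3 (without Go6983 replicate 1) with single replicates left out. It was 3 with a window of 4-fold or with abundance per kilobase of exon, and 2 with a window of 1.5-fold or with abundance in NT. Without total depth, and with 2 samples a group, the spread of *Yy2* in Go6983 rests on 26 and 39 reads.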
